A study of Homo sapiens with 4 samples.

Results

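HCC-LM3 and Huh-7 cells were compared at the level of the whole transcriptome by setting 2 RNA-seq libraries labelled HCC-LM3 against 2 labelled Huh-7. These 4 libraries are all those of the series, so every sample entered the comparison. Both are established human cell lines from liver cancer (hepatocellular carcinoma, HCC), and HCC-LM3 is known for its high capacity to metastasise. Each line contributed 1 library labelled sh-WDR4-2, for a short hairpin RNA against WDR4, and 1 library labelled sh-NC, for a control hairpin, all labelled as taken at 48 h. The treatment labels do not match these names: they give the HCC-LM3 library labelled sh-WDR4-2 as a transduction with WDR4 and the Huh-7 one as a transfection with an siRNA. The study's methods describe lentiviral hairpins and selection with puromycin. The 2 libraries of a line therefore differ in their hairpin and are not repeats of 1 culture. P-values measured only the spread between these libraries, which may be technical. The hairpin label was kept as a block in the test. Culture, extraction and sequencing of a line cannot be told apart from the line itself. The labels place the HCC-LM3 library labelled sh-WDR4-2 on lane 4 and the other libraries on lane 3, and they describe the extraction of the Huh-7 libraries as one from retinas.

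Hepatocytes make most plasma proteins, detoxify ammonia through the urea cycle, modify drugs and toxins and secrete bile, under the control of transcription factors such as HNF4A and CEBPA. Bile duct cells carry keratins 7 and 19, and liver progenitor cells share markers with both. HCC lines keep different parts of these programmes, and many switch on fetal or germline genes or genes of matrix and migration. The genes are described below in that order, from lineage to adhesion, metabolism and signalling.

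The markers given for these lines were CPS1, KRT7 and CDH1. CPS1, the mitochondrial carbamoyl-phosphate synthetase that starts the urea cycle, had 3064 and 3065 CPM (counts scaled to a common library total) in the HCC-LM3 libraries and 1015 and 1052 CPM in the Huh-7 libraries. CPS1 was thus abundant in both lines and 2.97-fold higher in HCC-LM3 (log2 fold change 1.57 ± 0.04 standard error, SE, adjusted p = 5.4e-16). KRT7, a keratin of the biliary epithelium, had 1420 and 1744 CPM in HCC-LM3 and 380 and 364 CPM in Huh-7, a log2 fold change of 2.08 ± 0.11 (SE, edgeR's adjusted p = 2.0e-04). CDH1, which encodes E-cadherin of epithelial adherens junctions, had 0.689 and 0.736 CPM in HCC-LM3 and 0.762 and 2.35 CPM in Huh-7. E-cadherin mRNA was thus low in all 4 libraries, and its difference (log2 fold change −1.06 ± 0.44, adjusted p = 0.039) rested on the Huh-7 library labelled sh-NC. The call was lost with DESeq2, with limma-voom and under 3 other settings. It was also lost without either HCC-LM3 library or without the Huh-7 library labelled sh-NC, where the log2 fold change became −0.09. CPS1 lies on chromosome 2 from 210477682 to 210679107 on the plus strand, KRT7 on chromosome 12 from 52232520 to 52252186 (plus strand) and CDH1 on chromosome 16 from 68737225 to 68835548 (plus strand; GENCODE release 29 on GRCh38). Here and below, adjusted p-values come from edgeR's quasi-likelihood test with Benjamini-Hochberg adjustment over 12693 genes, log2 fold changes are HCC-LM3 over Huh-7, and a gene was called at an adjusted p under 0.05 and a difference over 2-fold. The test took genes whose mean CPM in all 4 libraries reached 1, so a gene present in 1 line alone could pass.

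The labels were checked against genes that define liver cells. Of 44 plasma protein genes found in the table, 31 stayed under the filter and 27 had at most 10 counts in every library. ALB (albumin), TTR (transthyretin), APOH, FETUB and F9 had 0 counts in all 4 libraries, which allows up to 0.0690 to 0.0940 CPM, the level of 3 counts in each library. AFP, the fetal counterpart of albumin, had 0 and 6 counts in HCC-LM3 and 2 and 0 counts in Huh-7. The counts thus lacked these defining markers in both lines, although CPS1 was among the abundant transcripts. Whether the cells lacked the transcripts, the libraries are other than labelled or the table lost values was not tested, and HCC-LM3 and Huh-7 name the libraries by their labels throughout. WDR4 itself had 31.6 and 36.9 CPM in the HCC-LM3 libraries labelled sh-WDR4-2 and sh-NC, and 29.01 and 29.4 CPM in the corresponding Huh-7 libraries. It did not pass the 2-fold threshold between the lines (log2 fold change 0.23 ± 0.09, edgeR's adjusted p = 0.024).

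Some symbols of the deposited table do not belong to the counts beside them. Count, FPKM (fragments scaled to gene length and library total) and library total together give the gene length that was used for each entry, and all 60121 such lengths were whole numbers within 0.01 base. Of 16467 entries that could be compared with GENCODE, 936 had a length outside the range of their gene by more than 5%, and 19 entries had different lengths in the 2 lines. The entries follow the order of a Python dictionary, and 204 symbols other than dates stood out of that order, of which 148 formed 74 pairs whose places were exchanged. In 142 of these 148 entries both lengths could be compared: the length matched a transcript of the gene named in 17 and of the exchanged gene in 101. The plasma proteins AHSG, AMBP, APOA1 and APOB seemed well expressed in both lines with differences under 2-fold, AHSG at 354, 350, 358 and 356 CPM. All 4 were out of order with lengths outside their gene. The entry AHSG has a length of 3152 bases and stands where MCM3, a subunit of the replicative helicase, belongs, and an MCM3 transcript has 3169 bases. In the same way ALDH1A1 stands in the place of MCM2, IGF1 in that of ANXA8, AREG in that of ORC1 and A1BG in that of TLR4. CXCL3 and CXCL8 form no such pairs, as the order points from them to the entries ACACA and ACACB but not back. Their lengths, 9914 and 9250 bases, match transcripts of ACACA (9961 bases) and ACACB (9247 bases). Neither the presence of these genes nor the near absence of MCM2, MCM3, MDM2, TGFB1, GYS1 or CDKN1A in the table, all out of order, was read as expression. Such symbols are marked below as in doubt, as are those with a length outside their gene.

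**Figure D1:**
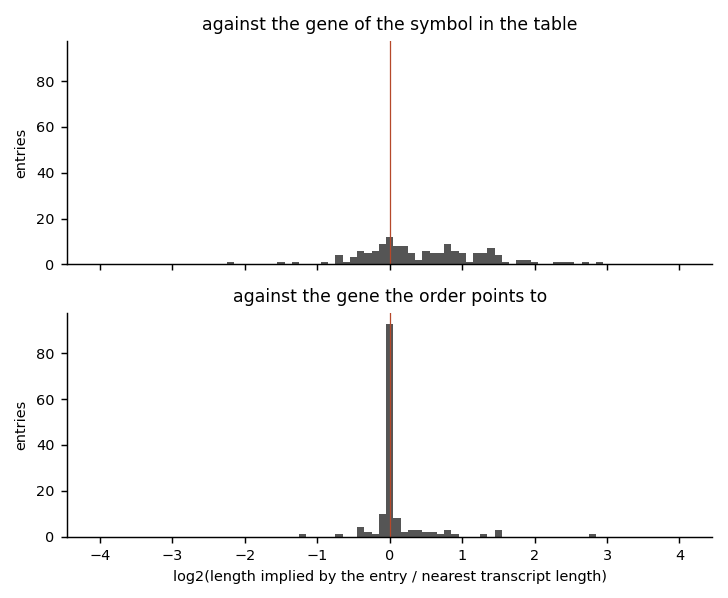
Length implied by count and FPKM for entries in exchanged pairs, as log2 of its ratio to the nearest transcript (x axis), with the number of entries on the y axis; the upper panel compares with the gene of the printed symbol and the lower with the gene the table's order points to. The lower panel has a narrow peak at 0, from the 101 of 142 entries whose length matched the exchanged gene, where the upper panel is spread out.

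The lines differed widely, and the libraries within a line were close. On the log2 scale the median absolute difference was 0.513 between lines, against 0.0967 between the HCC-LM3 libraries and 0.0680 between the Huh-7 libraries. Over genes, log2 CPM correlated at 0.995 within HCC-LM3, 0.997 within Huh-7 and 0.804 to 0.810 between lines, as a description, since genes are not independent replicates. Of the 12693 genes tested, 1828 (14.4%) were called higher in HCC-LM3 and 1619 (12.8%) higher in Huh-7. At over 8-fold these were 726 (5.72%) and 362 (2.85%). In all 3447 called genes but 1, both libraries of one line lay above both of the other, as they did in 89.3% of all genes tested. The exception was ITGB2, at 2.51 and 0.483 CPM in HCC-LM3 against 0.527 and 0.491 CPM in Huh-7. Genes at 0 counts in one line were unevenly shared: 301 tested genes had 0 counts in both Huh-7 libraries and 22 had 0 counts in both HCC-LM3 libraries. Among genes of at least 20 CPM in both libraries of the higher line, these were 39 and 4. The 4 became 12 when up to 3 counts in each HCC-LM3 library were allowed, so this number depended on the strict 0. The split of calls moved with the processing, from 1828 against 1619 to 2286 against 1312 (63.5% of calls higher in HCC-LM3) without size factors, which shifted the median log2 fold change of all genes from 0.0052 to 0.20, and to 757 against 1126 (40.2%) among genes of at least 10 CPM.

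**Figure D2:**
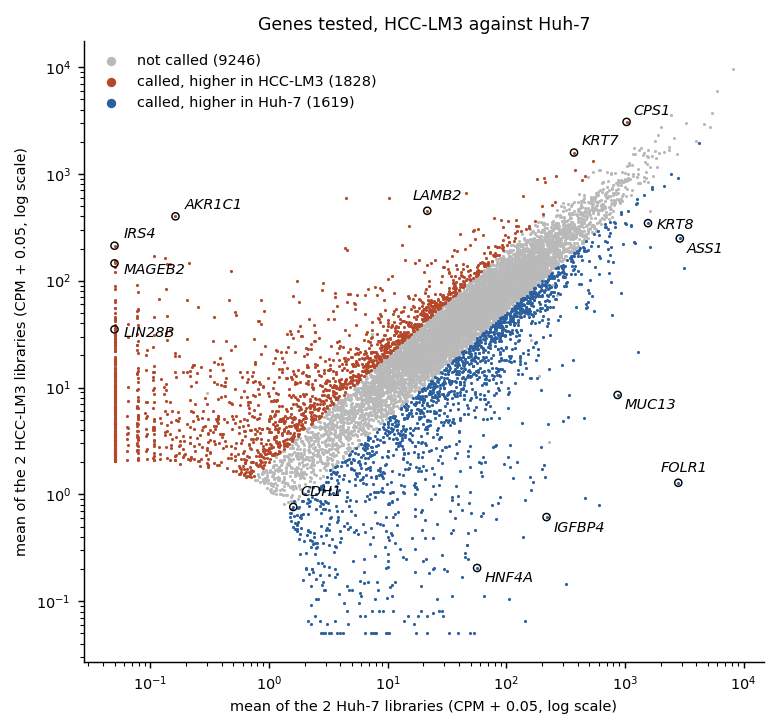
Mean CPM of the 2 Huh-7 libraries (x axis) against that of the 2 HCC-LM3 libraries (y axis) for the 12693 genes tested, both log axes with 0.05 added; colours mark the 1828 and 1619 genes called. The column of points at the left edge holds genes with 0 counts in Huh-7, such as IRS4 and MAGEB2, and is denser than the row at the bottom edge.

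The rule for the 15 largest differences took genes of at least 20 CPM in both libraries of the higher line with no symbol in doubt, and all 15 on the HCC-LM3 side had 0 counts in both Huh-7 libraries. IRS4, an adaptor of insulin receptor signalling, had 7197 and 8686 counts in HCC-LM3, at least 2504-fold above a floor of 3 counts per Huh-7 library (adjusted p = 1.2e-19, edgeR). QPRT, which makes a precursor of NAD from quinolinate, had 142 and 166 CPM, and MAGEB2, a cancer-testis antigen normally limited to germ cells, had 142 and 148 CPM. AMOT, an angiomotin scaffold of the Hippo pathway, had 144 and 126 CPM and CA2, a carbonic anhydrase, 126 and 112 CPM. TFPI, the inhibitor of tissue factor in coagulation, SERPINB5 (maspin) and the tetraspanin TSPAN6 followed at bounds of 1039-fold to 772-fold. Further down came the phosphatase PTPN13, the axonal motor KIF1A, the junction scaffold MPDZ, ADARB2, PABPC4L and the basement membrane link protein NID1, at bounds of 653-fold to 499-fold.

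On the Huh-7 side of the same rule, FOLR1, the folate receptor alpha, had 1.41 and 1.06 CPM in HCC-LM3 and 2586 and 3049 CPM in Huh-7, 2284-fold apart (log2 fold change −11.19 ± 0.11, edgeR's adjusted p = 1.0e-12). MUC16, the mucin that carries the CA125 antigen, had 6 and 0 counts in HCC-LM3 against 11549 and 11081 in Huh-7. The mucin was called by edgeR and DESeq2 but not by limma-voom. ALPL, the tissue-nonspecific alkaline phosphatase, had 0.908 and 0.598 CPM against 610 and 610 CPM. C14orf180, MYOM3, the retinol carrier RBP4 and ARSE had 0 counts in both HCC-LM3 libraries, at bounds of 659-fold, 604-fold, 484-fold and 407-fold. EPS8L3 had 1 and 0 counts in HCC-LM3 and 4906 and 5231 in Huh-7, a ratio of 10800 with a counting interval of 1938 to 426600. The vesicular nucleotide transporter SLC17A9, SV2B, the neurofilament INA, CREB3L3, C2orf54, RNF212 and ZFP3 completed the 15.

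Hepatocyte transcription factors were split between the lines. Among 28 factors, 19 were tested, 4 were higher in HCC-LM3 (21.1%) and 6 higher in Huh-7 (31.6%). All genes tested had shares of 14.4% and 12.8%, and the list's median log2 fold change was −0.52. HNF4A, the nuclear receptor that controls much of the hepatocyte programme, had 0.125 and 0.184 CPM in HCC-LM3 and 58.0 and 55.5 CPM in Huh-7. It was 367-fold lower in HCC-LM3 (log2 fold change −8.44 ± 0.17, adjusted p = 1.8e-17, edgeR), where 4 and 8 counts remained. CREB3L3, a membrane-bound factor of liver lipid metabolism, had 2 and 0 counts against 1015 and 997, a ratio of 1072 with a counting interval of 296 to 8857. CEBPA had 7.67 and 6.76 CPM in HCC-LM3 and 68.1 and 73.3 CPM in Huh-7, and RXRA and HNF4G, a relative of HNF4A, were also higher in Huh-7. CEBPB, whose length is in doubt, was called higher there too, a call lost without either HCC-LM3 library. The other direction was led by GATA4, a factor of early liver development, with 6.30 and 4.92 CPM in HCC-LM3 and 0 counts in both Huh-7 libraries. FOXA1, a pioneer factor of endoderm, was 2.59-fold and TBX3 2.15-fold higher in HCC-LM3. FOXA2, FOXA3, NR1H4 and NR0B2 had at most 8 counts in any library, and ONECUT2, at 116, 115, 96.9 and 97.1 CPM, did not pass the 2-fold threshold.

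Complement genes and RBP4 were among the plasma proteins that differed. C3, the central complement protein, had 62.6 and 62.9 CPM in HCC-LM3 and 465 and 508 CPM in Huh-7, 7.76-fold apart (log2 fold change −2.96 ± 0.05, edgeR's adjusted p = 5.6e-18). C5 (13.8-fold) and CFB (3.28-fold) were higher in Huh-7 too. The list of plasma proteins had 3 of 13 tested members higher in HCC-LM3 (23.1%), A1BG of doubtful symbol among them, and 5 higher in Huh-7 (38.5%), median −0.02. Oncofetal genes, active in fetal liver and again in tumours, were likewise divided, with 4 of 13 (30.8%) higher in HCC-LM3 and 3 (23.1%) in Huh-7. Their median was −0.16, and the shares of all genes for both lists were 14.4% and 12.8%. LIN28B, which blocks let-7 maturation, had 39.1 and 30.8 CPM in HCC-LM3 and 0 in Huh-7, at least 412-fold apart. HMGA2, a let-7 target, was 6.66-fold higher in HCC-LM3 and its relative HMGA1 2.46-fold higher in Huh-7. SALL4, a factor of stem cells, had 5.79 and 4.90 CPM against 33.0 and 30.7 CPM in Huh-7. GPC3, the glypican used to stain HCC, had 94 and 117 counts in HCC-LM3 and none in Huh-7. PEG10 and the RNA-binding proteins IGF2BP1, IGF2BP2 and IGF2BP3 were well expressed in both lines with differences under 2-fold.

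Biliary and progenitor markers did not follow KRT7. Of 13 tested members, 2 (15.4%) were higher in HCC-LM3 and 8 (61.5%) in Huh-7, against 14.4% and 12.8% of all genes. The median log2 fold change was −1.08. CLDN4 had 0.783 and 0.782 CPM in HCC-LM3 and 48.3 and 48.7 CPM in Huh-7 (log2 fold change −5.95 ± 0.14, edgeR's adjusted p = 8.8e-17). EPCAM, the epithelial adhesion molecule of progenitor cells, had 0 and 2 counts against 237 and 216. MUC1 was 9.92-fold, AQP1 8.51-fold and SOX9, the duct factor, 3.93-fold higher in Huh-7. Besides KRT7, NCAM1 went the other way, with 19.9 and 17.9 CPM in HCC-LM3 against 0.205 and 0.464 CPM in Huh-7. KRT19, the partner marker of KRT7 in bile ducts, had at most 6 counts in any library.

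**Figure D3:**
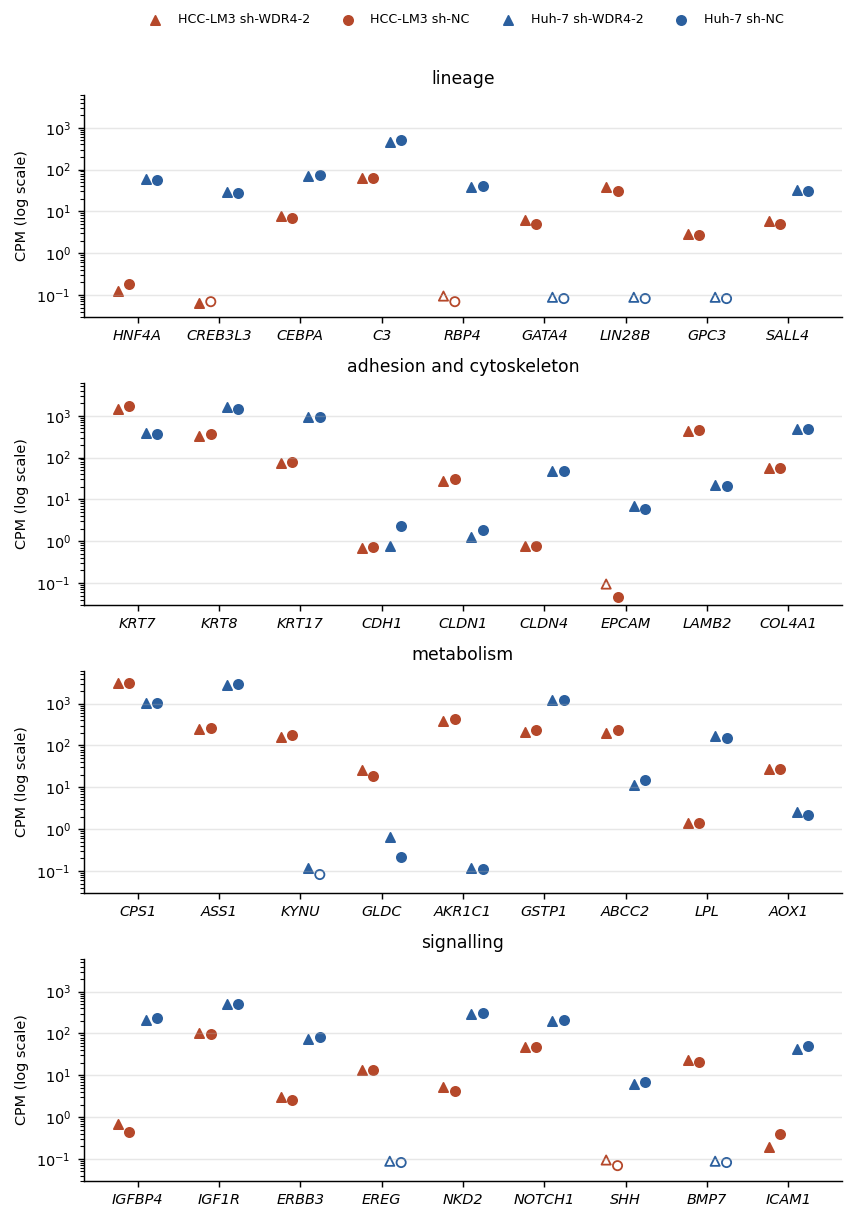
CPM on a log axis in each of the 4 libraries for members of the lineage, adhesion, metabolism and signalling groups, with triangles for sh-WDR4-2, circles for sh-NC, red for HCC-LM3 and blue for Huh-7; open symbols are counts of 0 drawn at the level of 3 counts. For most genes the libraries of a line lie close together beside the distance between lines, whereas the CDH1 values of the lines meet at 0.736 and 0.762 CPM.

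The most abundant keratin differed between the lines. Per length, on the deposited FPKM scale, KRT7 led in HCC-LM3 at a mean of 996, before KRT18 at 237 and KRT8 at 202. In Huh-7, KRT8 led at 799, before KRT17 at 549, KRT18 at 530 and KRT7 at 204. KRT17, a keratin of basal and stressed epithelia, had 73.2 and 80.1 CPM in HCC-LM3 and 936 and 915 CPM in Huh-7, 12.1-fold apart (log2 fold change −3.59 ± 0.05, adjusted p = 1.9e-18 by edgeR). KRT8 was 4.53-fold and KRT18 2.57-fold higher in Huh-7. KRT8 and KRT18 overlap on opposite strands of chromosome 12, and KRT16 and KRT17 are close paralogs, so the split of reads between neighbours and copies is uncertain. In all, 3 of 9 tested keratins (33.3%) were higher in HCC-LM3 and 4 (44.4%) in Huh-7, against 14.4% and 12.8% of all genes.

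Among genes of epithelial junctions, CLDN1 had 27.7 and 30.9 CPM in HCC-LM3 and 1.23 and 1.86 CPM in Huh-7, 19.0-fold apart (log2 fold change 4.25 ± 0.16, edgeR's adjusted p = 7.1e-14), the opposite of CLDN4. Occludin (OCLN, 7.98-fold) and the junctional adhesion molecule F11R (3.90-fold) were higher in HCC-LM3. CLDN7 (4.83-fold), the protease ST14 (134-fold) and its inhibitor SPINT2 (3.34-fold) were higher in Huh-7. The desmosomal plaque protein DSP had 340 and 306 CPM against 1136 and 1109 CPM in Huh-7, while JUP, DSG2 and CTNND1 had adjusted p-values of 0.069, 0.092 and 0.064. N-cadherin (CDH2) had 46.6 and 47.3 CPM in HCC-LM3 and 31.5 and 28.2 CPM in Huh-7, a difference under 2-fold. CDH3, P-cadherin, was 2.49-fold higher in HCC-LM3. Of 31 tested members, 5 (16.1%) were higher in HCC-LM3 and 7 (22.6%) in Huh-7, against 14.4% and 12.8% of all genes, median −0.41.

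Of 33 tested mesenchymal and invasion genes, 10 (30.3%) were higher in HCC-LM3 and 2 (6.06%) in Huh-7, against 14.4% and 12.8% of all genes. Several of these were at low levels. TWIST1, a factor that represses epithelial genes, had 8.33 and 7.94 CPM in HCC-LM3 and 0 in Huh-7, at least 95.8-fold apart. SPARC had 223 and 260 counts against 0, and FN1, fibronectin, had 23.4 and 19.5 CPM against 1.55 and 1.15 CPM (log2 fold change 3.99 ± 0.17, edgeR's adjusted p = 4.4e-13). TNC, tenascin C, had 203 and 228 counts against 0 and 9, a call lost with limma-voom. ZEB2 was 2.91-fold higher in HCC-LM3, and SNAI1, another repressor of E-cadherin, 15.2-fold higher in Huh-7 at 19.0 and 22.2 CPM. Vimentin, the defining intermediate filament of mesenchymal cells, was abundant in both lines, VIM having 1017 and 968 CPM in HCC-LM3 and 1302 and 1283 CPM in Huh-7. The median over the list was 0.19 on the log2 scale, and 21 of its tested members were not called.

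Basement membrane chains differed by paralog. LAMB2, laminin beta 2, had 439 and 463 CPM in HCC-LM3 and 21.8 and 21.4 CPM in Huh-7, 20.9-fold apart (log2 fold change 4.39 ± 0.06, edgeR's adjusted p = 9.7e-20). LAMB1, the alternative beta chain, ran the other way at 117 and 114 CPM against 374 and 382 CPM. The type IV collagen chains COL4A1 (8.55-fold) and COL4A2 (5.17-fold) were higher in Huh-7. The other chains had no call, COL4A5 being at a mean of 103.6 CPM in HCC-LM3 and 55.4 CPM in Huh-7 (log2 fold change 0.90 ± 0.06). NID1, which links laminin to type IV collagen, had 0 counts in both Huh-7 libraries. Among integrins, ITGB4 (14.9-fold), ITGA2 (5.52-fold) and ITGA6 (3.63-fold) were higher in Huh-7, the first and last being the pair of hemidesmosomes. ITGA1, a collagen receptor, was 2.79-fold higher in HCC-LM3. The list was evenly split, with 6 of 25 tested members in each direction, both above the shares of all genes (14.4% and 12.8%).

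Urea cycle and amino acid genes included abundant transcripts that separated the lines. ASS1, argininosuccinate synthetase, the enzyme after ornithine transcarbamylase, had 241 and 255 CPM in HCC-LM3 and 2834 and 2968 CPM in Huh-7. ASS1 was 11.7-fold higher in Huh-7 (log2 fold change −3.55 ± 0.05, adjusted p = 4.8e-20, edgeR), opposite to CPS1. Per length, CPS1 had a mean of 605 FPKM in HCC-LM3 against 146 FPKM for ASS1, and 178 FPKM in Huh-7 against 1490 FPKM for ASS1. Between them in the cycle, OTC had 0 counts in all 4 libraries, and ARG1, which closes it, had at most 11. KYNU, kynureninase of tryptophan breakdown, had 5238 and 7628 counts in HCC-LM3 and 4 and 0 in Huh-7. GLDC, of the glycine cleavage system, had 835 and 813 counts against 22 and 8, a ratio of 52.0, and its partner AMT was 4.97-fold higher. FAH of tyrosine breakdown was 8.37-fold, CBS of the transsulphuration pathway 4.01-fold and GLS2 2.94-fold higher in HCC-LM3. CTH, the enzyme after CBS, was 2.16-fold higher in Huh-7, a call lost without size factors, and PRODH 4.11-fold higher there. In all, 9 of 21 tested members (42.9%) were higher in HCC-LM3 and 3 (14.3%) in Huh-7, against 14.4% and 12.8% of all genes. The median log2 fold change was 0.83.

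The promoters of 3 genes are shown because their levels set the lines apart in the groups on metabolism and germline antigens. They are CPS1, GSTP1 (glutathione transferase P, 5.47-fold higher in Huh-7) and MAGEB2 (0 counts in Huh-7). Promoters of cancer-testis genes and of GSTP1 are known to be silenced by methylation of CG dinucleotides, which was not measured here. The sequences are from RefSeq on GRCh38.p14, 250 bases before to 50 after the gene start, 5′ to 3′ on the gene's strand, with every CG in capitals. CPS1 spans chr2:210593105-210593404 on the plus strand, GSTP1 chr11:67583562-67583861 on the plus strand and MAGEB2 chrX:30215313-30215612 on the plus strand.
CPS1: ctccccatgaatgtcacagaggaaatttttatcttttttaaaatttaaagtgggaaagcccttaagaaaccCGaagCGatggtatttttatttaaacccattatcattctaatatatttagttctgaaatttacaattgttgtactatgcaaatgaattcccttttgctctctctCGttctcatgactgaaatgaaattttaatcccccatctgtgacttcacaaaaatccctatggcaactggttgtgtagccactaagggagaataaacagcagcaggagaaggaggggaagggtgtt
GSTP1: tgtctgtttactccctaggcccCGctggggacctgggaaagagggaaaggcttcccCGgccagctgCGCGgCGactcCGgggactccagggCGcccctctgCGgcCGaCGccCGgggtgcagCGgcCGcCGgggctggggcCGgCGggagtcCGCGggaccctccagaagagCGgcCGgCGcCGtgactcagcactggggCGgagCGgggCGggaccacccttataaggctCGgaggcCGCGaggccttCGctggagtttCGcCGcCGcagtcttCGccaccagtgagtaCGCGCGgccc
MAGEB2: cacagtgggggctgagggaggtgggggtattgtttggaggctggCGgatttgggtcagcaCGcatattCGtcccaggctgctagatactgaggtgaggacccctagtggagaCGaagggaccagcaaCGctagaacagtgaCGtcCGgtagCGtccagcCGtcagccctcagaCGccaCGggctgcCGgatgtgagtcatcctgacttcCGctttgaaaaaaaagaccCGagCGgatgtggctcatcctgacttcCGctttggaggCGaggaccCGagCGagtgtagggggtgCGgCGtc
The 300 bases held 3 CG in CPS1, 36 in GSTP1 and 21 in MAGEB2. The CPS1 start in this table lies inside the gene as GENCODE draws it, so it is one of several starts. Of all 27305 promoters in the table, 56.0% held at least 10 CG. The share was 89.1% over tested genes with a promoter, 81.2% over those called higher in HCC-LM3 and 82.2% over those called higher in Huh-7.

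Of 27 tested genes of glucose metabolism, 2 (7.41%) were called in each direction, both below the shares of all genes (14.4% and 12.8%). PC, pyruvate carboxylase, had 252 and 256 CPM in HCC-LM3 and 101 and 106 CPM in Huh-7, 2.46-fold apart. PCK1, the cytosolic enzyme of gluconeogenesis, had 10.6 and 10.3 CPM in Huh-7 against 1.16 and 0.805 CPM, and its mitochondrial form PCK2 did not pass 2-fold. SLC2A3, a glucose transporter, had 4.79 and 1.31 CPM in HCC-LM3 and 236 and 227 CPM in Huh-7 without a call (adjusted p = 0.064), as the HCC-LM3 libraries labelled sh-WDR4-2 and sh-NC lay far apart. ENO2, a glycolytic enolase, had 38.8 and 16.7 CPM against 158 and 165 CPM, likewise without a call (edgeR's adjusted p = 0.14). G6PC, SLC2A2 and PKLR, which mark glucose handling in hepatocytes, had 0 counts throughout.

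Among lipid and bile genes, ABCC2, which exports conjugates into bile, had 197 and 232 CPM in HCC-LM3 and 11.6 and 14.9 CPM in Huh-7 (log2 fold change 4.02 ± 0.07, edgeR's adjusted p = 1.6e-18), and its basolateral relative ABCC3 was 6.68-fold higher in HCC-LM3. ACSL5 (13.9-fold) and the elongase ELOVL6 (4.72-fold) were higher there as well. LPL, lipoprotein lipase, had 1.41 and 1.43 CPM in HCC-LM3 and 167 and 149 CPM in Huh-7, 111-fold apart. Of 28 tested members, 6 (21.4%) were higher in HCC-LM3 and 5 (17.9%) in Huh-7, against 14.4% and 12.8% of all genes. The bile acid enzymes CYP7A1, CYP8B1 and BAAT and the transporters SLC10A1 and ABCB11 had at most 7 counts in any library.

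Of 22 tested genes of xenobiotic metabolism, 9 (40.9%) were higher in HCC-LM3 and 5 (22.7%) in Huh-7, against 14.4% and 12.8% of all genes. The median log2 fold change was 0.53. Aldo-keto reductases stood first. AKR1C1 had 378 and 422 CPM in HCC-LM3 and 4 counts in each Huh-7 library (adjusted p = 1.3e-21, edgeR), and AKR1C2 4341 and 6656 counts against 6 and 0. AKR1C3 had 260 and 280 CPM against 61.4 and 65.0 CPM. These genes are near-identical copies, so reads may have been assigned to the wrong one, and limma-voom did not call AKR1C2. The aldehyde oxidase AOX1 was 11.5-fold, ALDH3A1 7.34-fold and the epoxide hydrolase EPHX1 4.32-fold higher in HCC-LM3. GSTP1 had 210 and 239 CPM in HCC-LM3 and 1244 and 1208 CPM in Huh-7, 5.47-fold apart (log2 fold change −2.45 ± 0.06). CYP1B1 (5.72-fold) and GSTM4 (4.10-fold) were higher in Huh-7 too. The entry ALDH1A1, called 2.11-fold higher in Huh-7, is one of the symbols in doubt. Of the 59 genes found, 29 had at most 10 counts in every library, CYP3A4, CYP2E1 and the UGT2B genes among them.

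**Figure D4:**
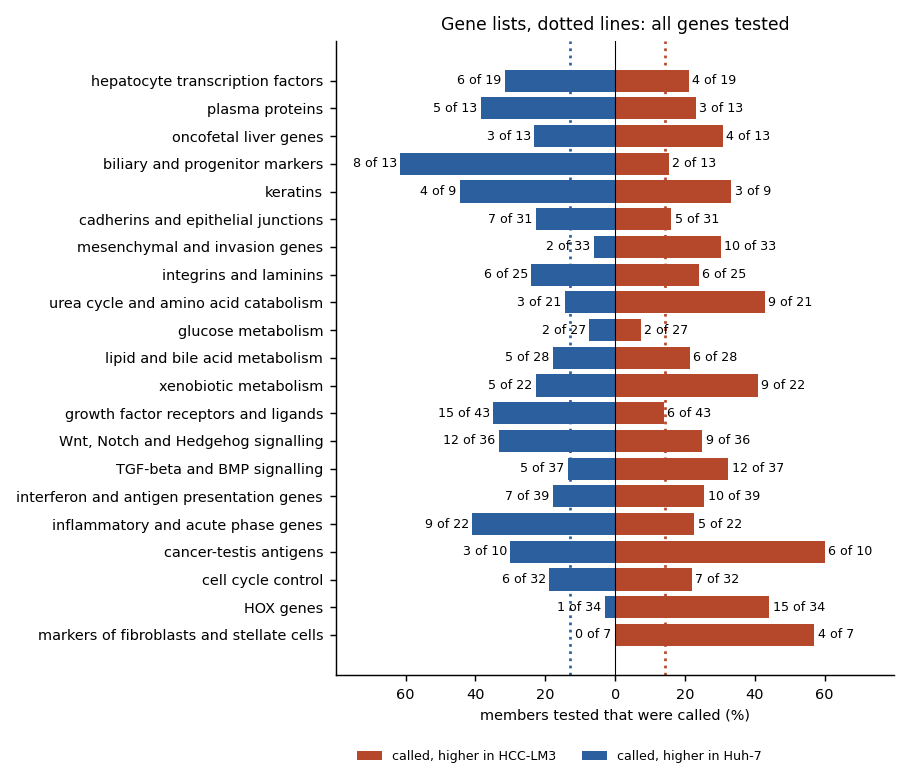
Share of tested members called higher in HCC-LM3 (red, to the right) and higher in Huh-7 (blue, to the left) for the gene lists with at least 5 tested members, in %, with counts at the bars. Dotted lines mark the shares of all genes, 14.4% and 12.8%; biliary markers reach 61.5% on the Huh-7 side and HOX genes 44.1% on the HCC-LM3 side.

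Growth factor receptors, ligands and feedback genes were more often higher in Huh-7, in 15 of 43 tested members (34.9%) against 6 (14.0%) in HCC-LM3. Among all genes these shares were 12.8% in Huh-7 and 14.4% in HCC-LM3, and the list's median was −0.42. IGFBP4, a secreted binding protein of insulin-like growth factors, had 0.689 and 0.437 CPM in HCC-LM3 and 208 and 229 CPM in Huh-7, 388-fold apart (log2 fold change −8.64 ± 0.12, edgeR's adjusted p = 2.9e-18). IGFBP1 had 0.595 and 0.552 CPM against 59.2 and 63.1 CPM. The receptor IGF1R was 5.10-fold and the insulin receptor INSR 2.50-fold higher in Huh-7. IGFBP2 went the other way, with 433 and 439 counts against 0 and 4, a call lost with limma-voom. Further binding proteins, named after their values were seen, ran both ways. IGFBP5, outside the list, had a mean of 14.6 CPM in HCC-LM3 and 0 in Huh-7. Within the list, IGFBP7 had 204.7 against 83.2 CPM and IGFBP6 3.03 against 19.5 CPM. All of them were called by edgeR. IGFBP3 had no call. The entry IGF1, 6.42-fold higher in Huh-7, is in doubt. In the EGF family, ERBB3 was 28.2-fold higher in Huh-7 while the ligands EREG, with 437 and 594 counts against 0, and TGFA, 32.7-fold, were higher in HCC-LM3. EGFR, at 511, 496, 645 and 659 CPM, and the HGF receptor MET, at 325, 343, 337 and 331 CPM, did not pass 2-fold. The feedback phosphatase DUSP4 (5.82-fold) and the ETS factor ETV4 (8.60-fold), both targets of MAP kinase signalling, were higher in Huh-7.

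Among Wnt, Notch and Hedgehog genes, NKD2, an inhibitor of Wnt signalling, had 5.39 and 4.28 CPM in HCC-LM3 and 289 and 313 CPM in Huh-7, and its relative NKD1 had 146 and 174 counts in HCC-LM3 against 0 and 2. RNF43, which removes Wnt receptors, was 16.3-fold and the ligand WNT5A 3.36-fold higher in HCC-LM3, and the Wnt target AXIN2 4.47-fold higher in Huh-7. SFRP1, a secreted Wnt antagonist, had 5.79 and 4.62 CPM in HCC-LM3 and 0 counts in Huh-7. Some Notch receptors and ligands were higher in Huh-7. NOTCH1 had 46.4 and 47.4 CPM in HCC-LM3 and 198 and 209 CPM in Huh-7 (log2 fold change −2.12 ± 0.06, edgeR's adjusted p = 8.2e-16). NOTCH3 was 5.92-fold, JAG2 5.72-fold and JAG1 2.97-fold higher there. Values of NOTCH2, DLL1 and DLL4 are not given here. Their target genes were divided, HES1 being 2.92-fold higher in Huh-7 and HEY1 10.3-fold higher in HCC-LM3. SHH, the Sonic hedgehog ligand, had 0 counts in HCC-LM3 and 210 and 248 in Huh-7, and GLI2 was 3.93-fold higher in Huh-7. In all 9 of 36 were higher in HCC-LM3 and 12 (33.3%) in Huh-7, against 14.4% and 12.8% of all genes.

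Of 37 tested TGF-beta and BMP genes, 12 (32.4%) were higher in HCC-LM3 and 5 (13.5%) in Huh-7, against 14.4% and 12.8% of all genes. Their median log2 fold change was 0.30. BMP7 had 748 and 905 counts in HCC-LM3 and 0 in Huh-7, at least 261-fold apart. SMAD9, a mediator of BMP signals, was 26.4-fold, the stress cytokine GDF15 11.3-fold and the BMP antagonist NOG 7.90-fold higher in HCC-LM3. BMP2, at 154 and 187 CPM against 31.3 and 38.9 CPM, and ID4, a BMP target with 0 counts in Huh-7, had lengths in doubt though both stood in order. INHBB, an activin subunit, had 2.04 and 2.32 CPM in HCC-LM3 and 106 and 102 CPM in Huh-7 (log2 fold change −5.56 ± 0.10), and FST, which binds activin, was 121-fold higher in Huh-7. The receptor TGFBR1 was 5.98-fold higher in Huh-7, and TGFBR2 had 58.1, 64.7, 51.8 and 54.3 CPM.

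Interferon and antigen presentation genes were called in both directions. OASL, an antiviral protein, had 33.1 and 35.0 CPM in HCC-LM3 and 1.64 and 1.75 CPM in Huh-7 (20.1-fold), and IFI44 had 371 and 515 counts against 0. IFIT1, IFIT2, IFITM1 and IFIH1 were 4.09-fold to 4.82-fold higher in HCC-LM3. TMEM173, which encodes the adaptor STING, had 12.8 and 11.7 CPM against 0.469 and 0.300 CPM. The immunoproteasome subunits PSMB8 (32.0-fold) and PSMB9 (60.9-fold), with HLA-F (12.6-fold), IRF7 (4.39-fold) and IRF1 (3.28-fold), were higher in Huh-7. B2M, HLA-B and HLA-C were abundant in both lines within 2-fold. Over the list, 10 of 39 (25.6%) were higher in HCC-LM3 and 7 (17.9%) in Huh-7, against 14.4% and 12.8% of all genes.

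Of 22 tested inflammatory genes, 9 (40.9%) were higher in Huh-7 and 5 (22.7%) in HCC-LM3, against 12.8% and 14.4% of all genes. ICAM1, a leukocyte adhesion molecule, had 0.188 and 0.391 CPM in HCC-LM3 and 42.0 and 51.1 CPM in Huh-7, 161-fold apart (log2 fold change −7.27 ± 0.17, edgeR's adjusted p = 1.5e-16). The cytokine IL32 was 135-fold higher and RELB and NFKB2, subunits of the noncanonical NF-kB pathway, 12.6-fold and 3.94-fold higher in Huh-7. The receptor IL1R1 was 22.1-fold higher in HCC-LM3. CXCL3 and CXCL8, both called higher in Huh-7, are in doubt, and 14 of 37 members had at most 10 counts in every library, CRP and HAMP with 0.

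Of 32 cancer-testis genes found, 10 were tested, of which 6 were higher in HCC-LM3 and 3 in Huh-7. Among all genes these shares were 14.4% and 12.8%. MAGEB2 was joined by MAGED1, a more widely expressed member of the family, with 2717 and 3109 counts against 2 and 0. MAGEA1 had 2.10 and 2.30 CPM in HCC-LM3 and 65.5 and 62.6 CPM in Huh-7, and PAGE1 was 4.80-fold higher in Huh-7. These genes have close copies, so the split among them is uncertain. HOX genes set position along the body axis. Of 34 tested, 15 (44.1%) were higher in HCC-LM3 and 1 (2.94%) in Huh-7, against 14.4% and 12.8% of all genes. The other 18 were not called. Among those higher in HCC-LM3, HOXB4, HOXB5 and HOXD4 had lengths in doubt. HOXD13 had 30.9 and 31.5 CPM in HCC-LM3 and 0 in Huh-7, HOXD10 14.97 and 12.9 CPM against 2 and 6 counts, and HOXB2 12.5 and 15.1 CPM against 5 and 9 counts. HOXB9 was 5.33-fold and HOXA9 4.07-fold higher in HCC-LM3, and HOXA3 2.77-fold higher in Huh-7. Among the 8 tested HOXC genes 0 were called at 2-fold, against 27.2% of all genes called in either direction. HOXC10 was the most abundant of them at 70.8, 75.2, 96.4 and 101 CPM.

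The D cyclins CCND2 and CCND1 differed in opposite directions, with CCND1 at the higher CPM in both lines. CCND2 had 39.0 and 29.4 CPM in HCC-LM3 and 0 in Huh-7, at least 403-fold apart, and CCND1 had 75.4 and 69.4 CPM against 228 and 217 CPM in Huh-7 (log2 fold change −1.62 ± 0.06, edgeR's adjusted p = 2.3e-14). The partner kinase CDK6 was 3.08-fold, CCNE1 3.77-fold and MYC 2.81-fold higher in Huh-7. The inhibitor CDKN1C was 11.7-fold higher in Huh-7 and CDKN2B 3.12-fold higher in HCC-LM3. RB1 and CDKN2A had no call. ZMAT3, an RNA-binding zinc finger protein, was 21.4-fold higher in HCC-LM3 at 316 and 335 CPM, while CDKN1A and MDM2 could not be read because their symbols are out of order. The list as a whole had 7 of 32 (21.9%) higher in HCC-LM3 and 6 (18.8%) in Huh-7, against 14.4% and 12.8% of all genes.

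Markers of other cell types were measured as a check. Of 10 fibroblast and stellate cell markers, 7 were tested and 4 (57.1%) were higher in HCC-LM3, against 14.4% of all genes. The 10 markers summed to 266 to 276 CPM in HCC-LM3 and 131 to 135 CPM in Huh-7. COL3A1 had 37.9 and 31.7 CPM in HCC-LM3 and 0 in Huh-7, LUM 823 and 1071 counts against 0 and 2, and DCN, whose call was lost with limma-voom, 493 and 531 counts against 0 and 4. COL1A2, COL6A3 and POSTN, further markers of these cells, had at most 6 counts in any library. COL1A1 had 176, 177, 118 and 116 CPM. The part of such cells in the mesenchymal and matrix genes above was not tested. In bulk RNA, more cells of a kind and more RNA per cell cannot be told apart. Endothelial markers summed to 11.7 to 12.6 CPM in HCC-LM3 and 4.48 to 5.07 CPM in Huh-7, PECAM1 being at 0. Leukocyte markers summed to 12.1 to 13.4 CPM and 23.3 to 30.3 CPM, with PTPRC at 0. Retinal markers, checked because of the extraction label, summed to 1.53 to 3.22 CPM in HCC-LM3 and 2.37 to 3.03 CPM in Huh-7, with CRX and RPE65 at 0.

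Differences were unevenly spread over chromosomes. On chromosome 6, 167 of 649 tested genes (25.7%) were higher in HCC-LM3 and 45 (6.93%) higher in Huh-7 (median on the log2 scale 0.55). For chromosome 4 the shares were 24.8% and 5.41% (median 0.45). Chromosome 8 had the reverse, with 8.29% higher in HCC-LM3 and 22.8% higher in Huh-7, median −0.51, chromosome 9 had 12.3% and 20.7%, median −0.25, and chromosome 7 had 11.7% and 18.6%, median −0.30. Chromosome X had 22.3% higher in HCC-LM3 and 9.74% higher in Huh-7. Copy number was not measured, and these shares are descriptions without a test.

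**Figure D5:**
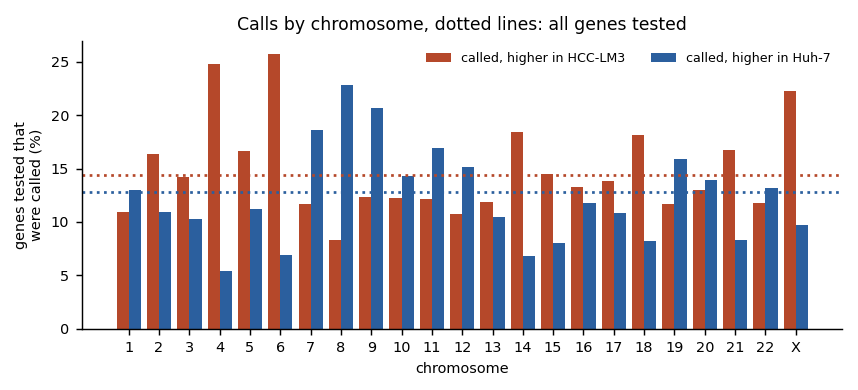
Share of tested genes called higher in HCC-LM3 (red bars) and higher in Huh-7 (blue bars) for each chromosome, in %, with dotted lines at 14.4% and 12.8% for all genes. Chromosomes 4 and 6 stand highest for HCC-LM3 at 24.8% and 25.7%, and chromosome 8 highest for Huh-7 at 22.8%.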

How the data were processed

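RNA-seq libraries were made, according to the study, with the VAHTS mRNA-seq v2 kit on a NovaSeq platform, whereas the labels name a TruSeq kit. Bowtie 0.12.2 stands in the submitters' processing notes beside 2 genome builds of the mouse, mm8 and mm9, although the cells are human. The sources used here do not name the read counter or the human annotation. The authors deposited raw counts per gene symbol together with FPKM, in which each count is scaled by the library total and by a gene length in whole bases. Counts summed to 29807047 and 40572251 in HCC-LM3 and to 36584264 and 39217678 in Huh-7. Among counts of 1 to 10, 62.3% to 67.2% were even, and 2 counts were seen in 460 to 510 entries per library against 182 to 229 for 1 count, a pattern whose cause was not tested. Counts may therefore not be independent molecules, and counting intervals may be too narrow.

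Counts were scaled by TMM (factors 1.07, 1.07, 0.933 and 0.934) and tested with edgeR 4.0.16 (R 4.3.3), robust quasi-likelihood, hairpin label as block, 1 residual degree of freedom, on entries of at least 1 CPM on average. Alternatives were DESeq2 1.42.0, limma-voom 3.58.1, other size factors and filters, no block, each library left out in turn, an 8-fold threshold, symbols in doubt left out, counts per implied length and, added after the data were seen, exchanged symbols put back. Against 0 counts in both libraries of a line, folds use a floor of 3 counts per library; with 1 to 3 counts in all, the ratio has an exact 95% binomial interval, which covers counting error only.

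The gene lists (24, of which 773 of 782 symbols were found) and the comparison were chosen with earlier results of these data known. Named genes were CPS1, KRT7 and CDH1, the 15 largest differences per direction at 20 CPM or more in both libraries of the higher line, and per list up to 6 called members per direction at 5 CPM or more; other list members are given as values or bounds. List members under 5 CPM, such as GPC3, and genes without a call were named after their values were seen. Some genes the rule names are not reported here. Coordinates are from GENCODE release 29 and promoters from RefSeq. Tables and intervals were computed with pandas 2.3.3, numpy 2.4.6 and scipy 1.17.1 under Python 3.11.15.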

Additional observations from a re-analysis of the deposited data

How the results depend on the processing

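The number of genes called higher in HCC-LM3 was 1828 and was 757 among genes of at least 10 CPM, and ran from 1711 to 2571 over the other alternatives at 2-fold. The number called higher in Huh-7 was 1619 and ran from 1126 to 1828 over all alternatives at 2-fold. At over 8-fold the counts were 726 and 362. Without the replicate block, that is without the hairpin label in the fit, they were 1825 and 1613. Hairpin differences of the 2 lines correlated at 0.0346 over genes, and with 2 pairs the pairing could not be judged further. Leaving out 1 library at a time, without the block, gave 1789 to 1837 genes higher in HCC-LM3 and 1589 to 1629 higher in Huh-7. The lone library of a line was then assumed to vary like the other line. Putting exchanged symbols back left both counts as they were, since entries only change names.

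Of the genes named by the rule, 19 lost their call under at least 1 alternative, and 0 changed direction. With limma-voom these were AKR1C2, CDH1, DCN, IGFBP2, KIT, MUC16, SV2B and TNC. Without size factors they were ALDH1A1, CD44, CD68, CDH1, CTH, GSTM3, LIF and PDK4. Each library left out in turn cost the calls of CDH1, CEBPB, NFKBIA, CD68 or GADD45A. CDH1 and DUSP5 were lost without a filter, and CDH1 also without the block and with DESeq2. With 2 libraries per line, whose hairpins differ, the spread rests on 1 residual degree of freedom and on genes sharing it, and genes that differ between hairpins in HCC-LM3, such as SLC2A3, miss the threshold at large folds.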

Other observations

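Several abundant genes outside the lists also separated the lines and were chosen after their values were seen. In HCC-LM3, HIF1A, the oxygen-regulated subunit of a hypoxia factor, had 648 and 602 CPM against 134 and 141 CPM in Huh-7. The secreted LGALS3BP had 563 and 615 CPM against 9.17 and 11.2 CPM, and the serine protease PRSS56 560 and 620 CPM against 4.92 and 3.96 CPM. The collagen receptor MRC2 was 14.4-fold, the polyol pathway enzyme AKR1B1 4.96-fold, the lysosomal protease CTSD 4.36-fold and PHGDH of serine synthesis 5.22-fold higher in HCC-LM3.

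In Huh-7, EEF1A2, an elongation factor of muscle and nerve, had 1294 and 1287 CPM against 23.9 and 19.2 CPM in HCC-LM3, and MUC13, a membrane mucin, 856 and 882 CPM against 8.36 and 8.58 CPM. The ligand WNT10B was 89.0-fold, the hexokinase relative HKDC1 152-fold and COL7A1, the chain of anchoring fibrils, 7.82-fold higher in Huh-7. The complement proteases C1S and C1R were 7.03-fold and 12.9-fold higher there, beside C3, C5 and CFB. All of these were called by edgeR's quasi-likelihood test.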
